A study of Mus musculus with 4 samples.

Results

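The regions described here were all those that the authors listed as enriched for N6-methyladenosine (m6A) over input RNA in cells carrying an shRNA against Mettl3. The list held 15417 of the 32707 peaks in the 3 deposited lists, and every row of it was used. Peaks that touched or overlapped on the same strand were joined, which left 7827 marked stretches. These lay in 4636 genes, counting a joint gene name of the authors as 1 gene, and 15 stretches (0.192%) carried no gene. The question was what remained marked per gene when Mettl3 was knocked down: how many stretches, how long, in how many kinds of region, and in which genes most densely.

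The cells were E1A;HRasV12 mouse embryonic fibroblasts, which carry a viral and a cellular oncogene. The control group carried control shRNA, named for luciferase in its title. Cells of both groups were exposed for 6 h to doxorubicin (0.2 µg/ml), which damages DNA, so the lists hold no undamaged cells. Each group had 1 m6A-eCLIP library and 1 input library, so no difference between the groups has a replicate check and no test was run. The knockdown was acute, its remaining Mettl3 was not analysed here, and Mettl3 itself had no stretch in either list. Intervals are exact Clopper-Pearson 95% intervals, which cover counting error only and treat neighbouring stretches as independent. Every listed peak of the Mettl3 shRNA library had a log2 fold over input above 3, so a gene or site that is not listed may still be enriched less strongly. Peaks do not give transcript levels, so a lost mark and a lost transcript cannot be told apart where a gene is not listed. Folds are the authors' own values per peak and are set side by side between the lists only as a description.

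Mettl3 is the catalytic subunit of a nuclear complex, with Mettl14, Wtap, Virma, Zc3h13 and the adaptors Rbm15 and Rbm15b, that methylates adenosines in mRNA within a short sequence centred on AC, GGAC being a common form. In mammalian mRNA the mark is best known near stop codons and in long internal exons, and it is bound by YTH domain proteins that direct the decay, translation or nuclear handling of the transcript. In m6A-eCLIP an antibody against the mark is crosslinked to RNA fragments, so that a pile of fragments over input marks a methylated stretch rather than a single base.

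Stretches at the very start of genes carry one of the contrasts described further down, and their sequences are shown first. In the Mettl3 shRNA list 49 of 7570 stretches, or 0.647% (0.479 to 0.855), overlapped the first 50 bases after a RefSeq gene start, against 25 of 7762, or 0.322% (0.209 to 0.475), in the control list. The 49 stretches touched 50 starts, of which 29 had a stretch that no control stretch overlapped. Some of the 29 rest on very short stretches, of 3 bases at Bicd2, 4 at Tsc22d1, 4 at Mcrip1 and 6 at Slc35b3. That of Mcrip1 counts for more than 1 start. Shown are the first 30 bases of 4 of the 50 starts with the letters GGAC (in capitals, searched on the transcript strand only) and of 3 without them in all 50 bases searched, chosen from starts with and without an overlapping control stretch. They read, 5′ to 3′ (RefSeq, GRCm38.p6):
Rbbp6, chr7:122970564-122970593, plus strand: gcggccgctatGGACccctgaccccgcggg
Insyn1, chr9:58488603-58488632, plus strand: GGACtttccccaccgttgatggagccgact
Kcnj4, chr15:79505212-79505241, minus strand: agcGGACactcgccgcccagaccctcctcg
Ep300, chr15:81586214-81586243, plus strand: gaaggaggaGGACagcgccgaggaggaaga
Hoxd11, chr2:74682323-74682352, plus strand: tgcaatcgatggctcaggttggaggcgcgg
Ndufa13, chr8:69901991-69902020, minus strand: agttcctcgtgagaagtcactggcgaggag
Homer1, chr13:93303757-93303786, plus strand: aaaggtccttctgcggggaggatggagaca

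Rbbp6, a ubiquitin ligase gene of mRNA 3' end processing, had a 370-base stretch over all 50 bases of its start with a log2 fold over input of 6.45, and a control stretch overlapped it. The stretches of Insyn1 (log2 4.53) and of Ndufa13, a gene of respiratory complex I (log2 4.50), were also overlapped. That of Kcnj4, a potassium channel gene, was 27 bases long and began 19 bases after the gene start (log2 3.71), and that of the acetyltransferase gene Ep300 began 8 bases after it (log2 3.15). Neither was overlapped in the control list. The homeobox gene Hoxd11 had the largest fold of the 50 starts, log2 6.80 over a 336-base stretch without a control counterpart. The synaptic scaffold gene Homer1 had log2 4.44 in an 89-base stretch, also without one. The stretches of Rbbp6, Hoxd11 and Ndufa13 began 190, 79 and 33 bases before the RefSeq start. In the authors' annotation that of Hoxd11 lay in coding sequence and that of Ndufa13 in an intron or splice site. The folds of Hoxd11, Homer1 and Ep300 are whole multiples of a step shared by many peaks, described below with the other large folds. The same held for many others of the 50 starts, with and without a control counterpart, so the size of these folds is uncertain. GGAC occurred in the first 50 bases of 22 of the 50 marked starts, or 44.0% (29.99 to 58.7), in 11 of 25 in the control list, and in 6186 of all 32817 starts in the table (18.9%). The search took in all 50 bases, also those outside the stretch, and a stretch covered all of them in 15 of the 50 starts. In Insyn1 and Kcnj4 the GGAC shown lay before the first base of the stretch. A match is a description and not a methylated site, and starts without it may hold other forms of the context.

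Most marked genes held 1 stretch. Of 4636 genes, 2804 (60.5%, 59.1 to 61.9) had 1 stretch, 1051 (22.7%) had 2, 644 (13.9%) had 3 or 4, and 137 (2.96%, 2.49 to 3.48) had 5 or more. These 137 genes held 793 of the 7822 pairs of a gene and a stretch (10.1%), and the largest number was 13. The control list had nearly the same distribution, with 60.3% at 1 stretch and 138 genes (2.90%) at 5 or more, though its largest number was 9. Against the whole genome, 4237 of 21896 protein-coding RefSeq genes (19.4%) had a stretch in the Mettl3 shRNA list.

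**Figure D1:**
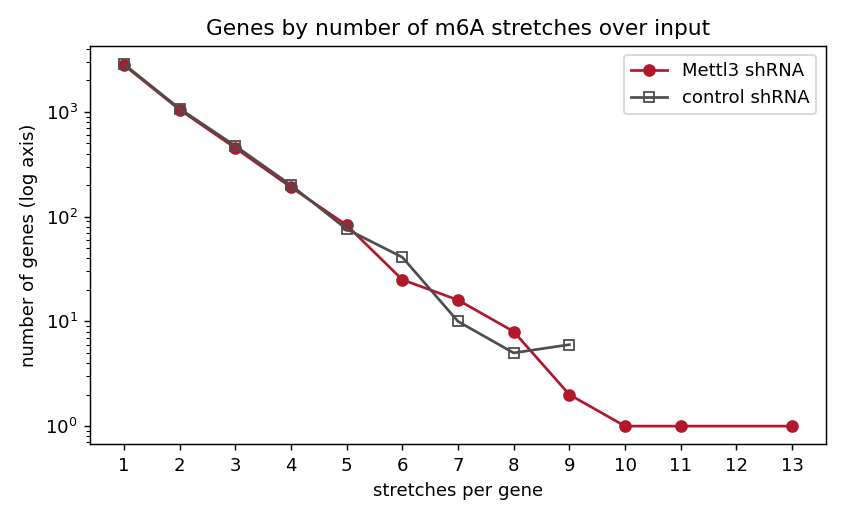
Number of genes (log axis) at each number of m6A stretches per gene, in the Mettl3 shRNA list (filled circles) and the control list (open squares). The lines run together from 1 to 5 stretches, and the 3 genes with 10, 11 and 13 stretches are in the Mettl3 shRNA list.

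Genes with more stretches were longer. Marked bases were summed over the stretches of a gene and its highest fold was taken over all its peaks. Both therefore tend to rise with the number of stretches by construction. Median marked bases per gene rose from 242 at 1 stretch to 485 at 2, 710.5 at 3 or 4 and 1133 at 5 or more. The median of each gene's highest log2 fold went from 3.79 to 4.21, 4.41 and 4.79 over the same classes, and the median genomic length of their protein-coding members from 26.7 kb to 28.8, 34.3 and 59.2 kb. All protein-coding RefSeq genes had a median of 17.1 kb. Neighbouring stretches of a gene were usually close: of 3186 gaps, counted over the genome with introns included, 53.9% were at most 500 bases, and the median was 428.

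Marking was mostly within 1 kind of region per gene, and coding sequence was the commonest. Of the 4636 genes, 3484 (75.2%) were marked in 1 kind of region, 1060 (22.9%) in 2, 88 (1.90%) in 3 and 4 in 4. Each peak has 1 kind of region, so the 1700 genes (36.7%) with 1 deposited peak could only be marked in 1 kind. Coding sequence alone was marked in 2088 genes, or 45.0% (43.6 to 46.5), against 1953 genes, or 41.1% (39.7 to 42.5), in the control list. The 3' UTR alone was marked in 749 genes, or 16.2% (15.1 to 17.2), against 897, or 18.9% (17.8 to 20.02), and both together in 791, or 17.1%, against 912, or 19.2%. The share of genes with any 3' UTR peak was thus lower in the Mettl3 shRNA list, 35.8% (34.5 to 37.2) against 40.9% (39.5 to 42.3). The 5' UTR went the other way, with a peak in 209 genes, or 4.51% (3.93 to 5.15), against 163, or 3.43% (2.93 to 3.99). Most genes are in both lists, so these intervals are not of independent samples. With 1 library per group they do not say whether the shares differ between the groups.

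The 4 genes marked in 4 kinds of region (5' UTR, coding sequence, 3' UTR and intron) were Cped1, the nuclear receptor gene Nr2f2, Tulp4 and BC025920. They held 5, 5, 5 and 3 stretches with 1202, 1169, 838 and 766 marked bases. In the control list they held 4, 5, 6 and 3 stretches with 863, 1237, 1160 and 519 bases, so that 2 of the 4 had more and 2 fewer marked bases.

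Single stretches had a median length of 225 bases, with quartiles of 150 and 307 and a range from 1 to 1059, close to the control median of 227. Stretches that crossed from coding sequence into the 3' UTR, and so held the stop codon, had a median of 361 bases (344 to 372), against 239 for coding sequence, 209 for the 3' UTR, 158 for introns and 155 for noncoding exons. They numbered 449 (5.74%) and had a median highest log2 fold of 4.35, against 3.73 within coding sequence and 3.65 within the 3' UTR. Since each peak has 1 kind of region, such a stretch holds at least 2 peaks by construction. Among stretches of 2 or more peaks, a comparison chosen after the values were seen, the medians lay closer together, at 322 bases and log2 4.16 in coding sequence and 289 bases and log2 4.04 in the 3' UTR. Coding sequence held 4421 stretches (56.5%) and the 3' UTR 1583 (20.2%).

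Stretches in the 5' UTR were shorter than in the control list. The 197 stretches had a median of 137 bases (113 to 167) and the 139 of the control list one of 199 (176 to 211). Of the 197, 27 (13.7%, 9.23 to 19.3) were under 20 bases, while in the control list 0 of 139 were, which allows a share of up to 2.62%. In coding sequence the share under 20 bases was 0.633% in the Mettl3 shRNA list and 0.682% in the control list. The 104 stretches in the 5' UTR that a control stretch overlapped had a median of 214.5 bases and the other 93 one of 77.

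**Figure D2:**
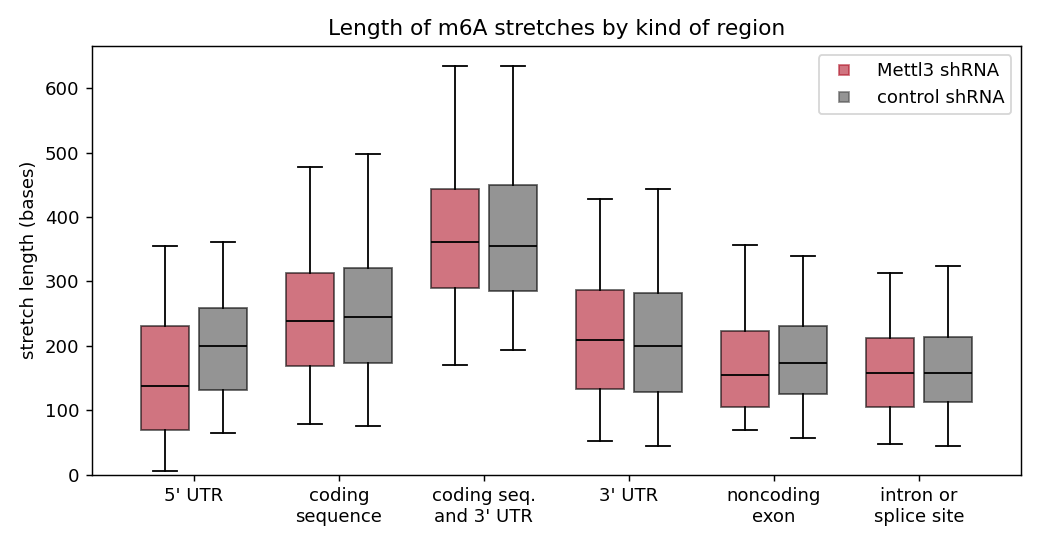
Length of stretches in bases by kind of region, in the Mettl3 shRNA list (red) and the control list (grey). Boxes show the quartiles and median and whiskers the 5th and 95th percentiles; the boxes of the lists lie close together except in the 5' UTR, where the medians are 137 and 199 bases.

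The longest stretches lay in coding sequence, except that of Chd6, which crossed into the 3' UTR, and had nearly the same ends in both lists. That of Itpkb, an inositol trisphosphate kinase gene, covered 1059 bases at chr1:180332904-180333962 (mm10, plus strand) and 1051 in the control list. Irf2bpl followed with 1018 bases (1013 in the control list), Znrf3, a ubiquitin ligase gene that limits Wnt receptors, with 976 (957), the chromatin remodeller gene Chd6 with 953 (951) and the zinc finger gene Zfp639 with 931 (953). Of these 5 stretches, 4 were longer and 1 shorter than their counterparts, none by more than a few percent.

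A stretch was made of 1 deposited peak in 4889 cases (62.5%) and of 10 or more in 143, or 1.83% (1.54 to 2.15), against 98 stretches, or 1.22% (0.992 to 1.49), in the control list. Stretches of 10 or more peaks had a median length of 399 bases and a median highest log2 fold of 5.39. Where a stretch held at least 5 peaks, its highest piece tended to sit near the middle: over 524 such stretches it lay at a median of 50.7% of the length from the 5' end, with quartiles of 40.2% and 63.9%. The difference between the highest and lowest log2 fold in a stretch had a median of 1.36, against 1.20 in the control list.

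The most finely divided stretch was the 3' UTR stretch of Phlda3, a p53 target gene that restrains Akt, with 50 peaks in 367 bases (chr1:135768539-135768905, plus strand) against 30 in 358 bases in the control list. Its highest piece was at bases 110 to 114 of the stretch in both lists, with a log2 fold of 4.80 and 4.70 in the control. Jun, a subunit of the AP-1 transcription factor, had 38 peaks in 509 bases across its stop codon, with its highest piece at bases 396 to 400 (log2 6.31). In the control list the highest piece lay at bases 392 to 396 (log2 5.88). Ier5, an immediate early gene, had 39 peaks in 634 bases with a highest log2 fold of 5.497, and 5.02 in the control list at a place that overlapped. Aebp1, a gene of the extracellular matrix, had 37 peaks in 323 bases and was the 1 gene of these 4 with a lower highest fold than in the control list (4.73 against 5.15), the place moving from bases 111 to 115 to bases 97 to 107. Ahnak, which encodes a giant scaffold protein, had 38 peaks in a 310-base stretch.

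**Figure D3:**
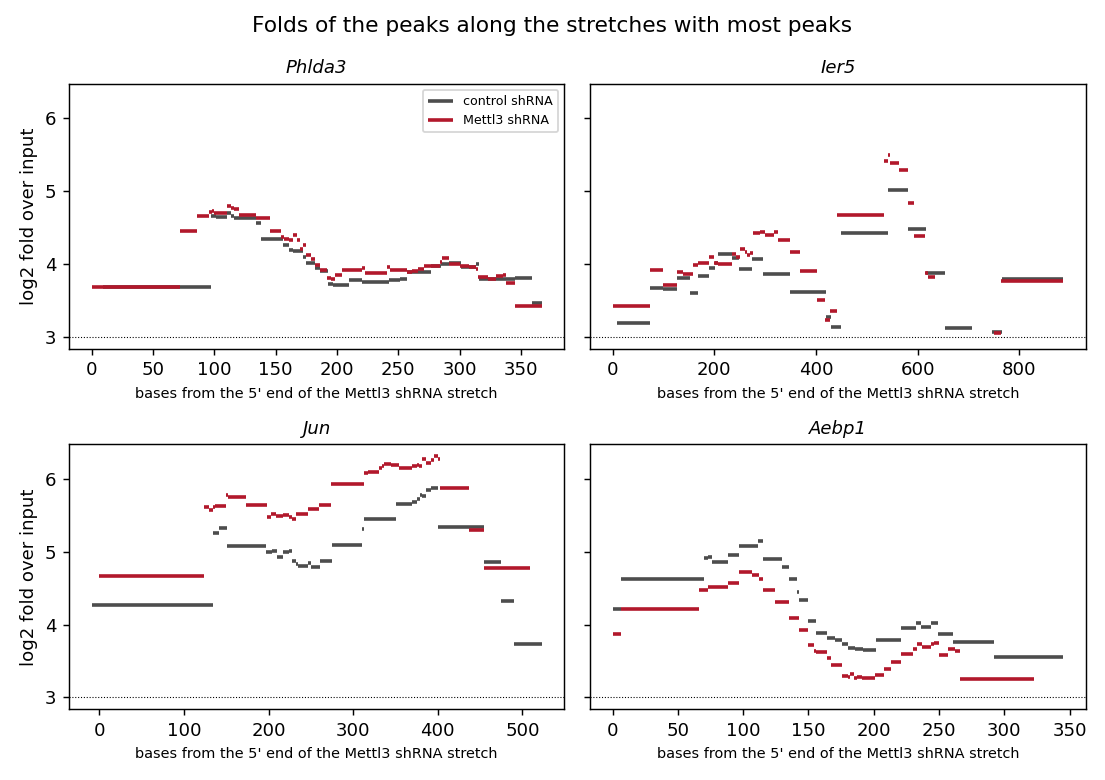
Log2 fold over input of each deposited peak (bar from its first to its last base) along the stretches of Phlda3, Ier5, Jun and Aebp1 and any stretch next to them, in bases from the 5' end of the Mettl3 shRNA stretch. Red bars are the Mettl3 shRNA list, grey bars the control list and the dotted line the lowest listed log2 fold of 3; in Jun the red bars lie above the grey ones over most of the stretch, in Aebp1 below them.

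The genes with most stretches mostly encode very large proteins. Dchs1, a giant cadherin gene of planar cell polarity, led with 13 stretches, all in coding sequence between chr7:105753234-105772335 (mm10, minus strand), with 2459 marked bases and highest log2 folds per stretch from 3.01 to 4.42. In the control list Dchs1 had 9 stretches and 2589 marked bases, so the higher number of stretches went with slightly fewer marked bases. Part of this was division of the same ground: 1 control stretch of 491 bases stood where the Mettl3 shRNA list had stretches of 240 and 123 bases with a gap between them.

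Plec, the gene of the cytoskeletal linker plectin, differed in both respects. It had 11 stretches with 1638 marked bases in 60 peaks, against 6 stretches with 972 bases in 26 peaks, and a highest log2 fold of 4.45 against 3.72. Each of its control stretches was overlapped in the Mettl3 shRNA list. The homeobox gene Onecut2 had 10 stretches and 1703 bases against 6 and 998. Spen, a repressor gene that acts in X inactivation, had 9 against 8, and the DNA structure endonuclease gene Eme2 9 against 8.

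The largest number of marked bases was in Kmt2d, a histone H3 lysine 4 methyltransferase gene, with 2932 bases in 8 stretches and a highest log2 fold of 5.87. The control list had 2476 bases in 9 stretches and 5.19. Its 8 stretches ran from 96 to 589 bases, all in coding sequence. After Dchs1 and Spen (2344) came Mga, a gene of a MAX-binding repressor, with 2319 bases in 7 stretches (2378 in the control list), and Fat1, an atypical cadherin gene of the Hippo pathway, with 2203 in 8 (2052). In Fat1 1 stretch of 449 bases before the stop codon held 32 of its 59 peaks and its highest log2 fold of 6.16, and the control counterpart of 464 bases held 27 peaks and reached 6.02. Zfhx3 (2121 against 2183), Dido1 (2057 against 2091), the histone methyltransferase gene Nsd1 (2023 against 1838), the ubiquitin ligase gene Rnf213 (1868 against 1494) and Rai1 (1822 against 1793) completed the 10 genes with most marked bases. Within this group, chosen by its values in the Mettl3 shRNA list, 6 had more and 4 fewer marked bases than in the control list.

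**Figure D4:**
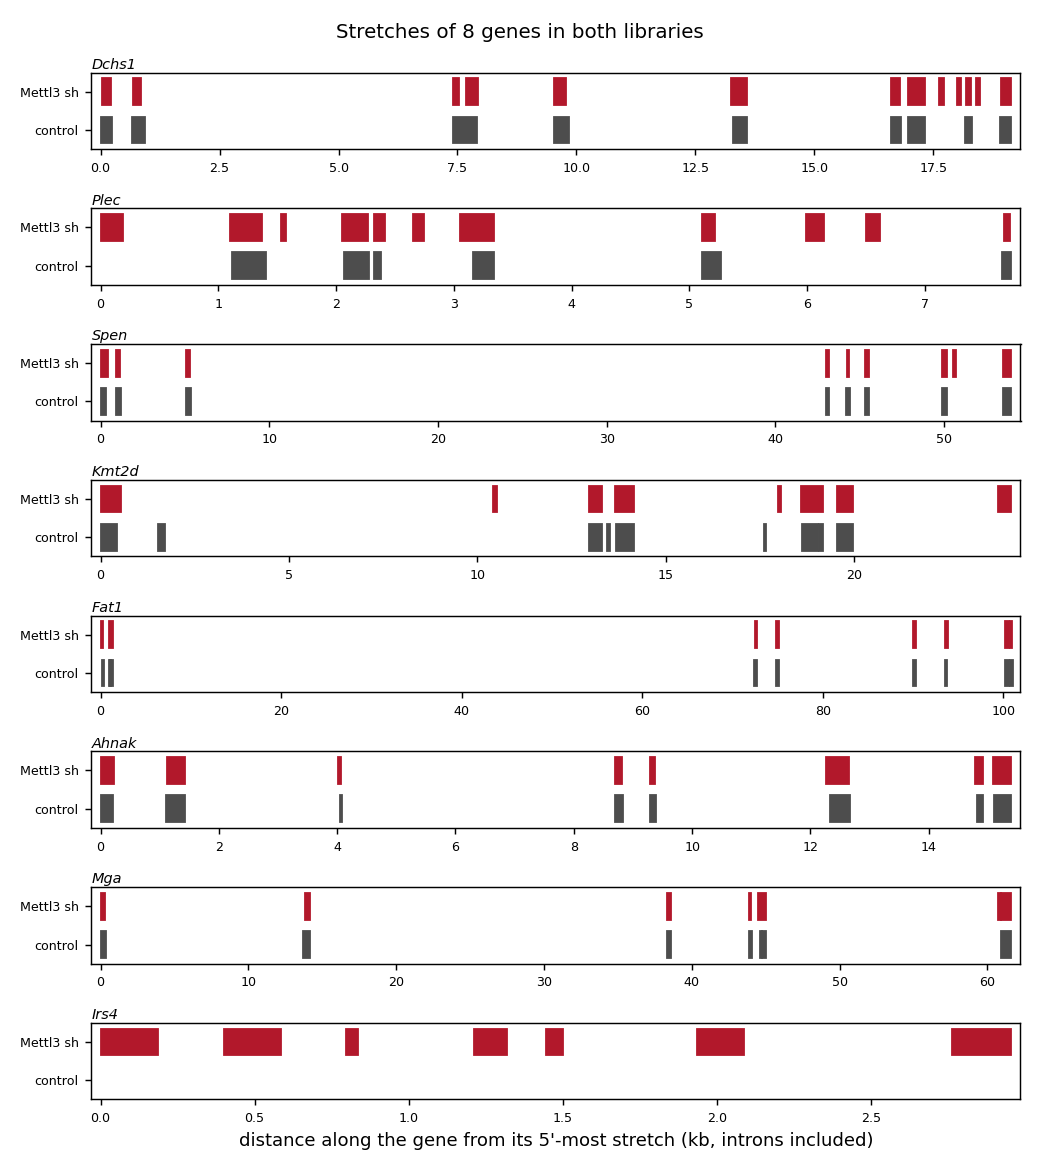
Stretches of Dchs1, Plec, Spen, Kmt2d, Fat1, Ahnak, Mga and Irs4 in the Mettl3 shRNA list (upper row, red) and the control list (lower row, grey), drawn to scale by distance from the 5'-most stretch in kb, introns included. Most blocks have a counterpart beneath them, Plec has 6 control blocks against 11, and Irs4 has none.

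Relative to gene length the order was quite different, and small genes led. The length is genomic and includes introns, so the ranking favours short genes by construction and does not give the density along the mRNA. Among protein-coding genes with at least 200 marked bases, ranked by marked bases per kb of RefSeq genomic length, a ranking chosen after the values were seen, Eme2 stood first with 551 bases per kb. Its stretches spanned chr17:24888508-24892457 (minus strand), more than the 2936 bases of its RefSeq gene, so its density is set against a gene model shorter than the marked span. The lysosome-related organelle gene Hps6 followed with 399 per kb (6 stretches, 1075 bases, and 1220 bases in the control list), then the DNA crosslink repair gene Fancf with 359, the immediate early gene Ier2 with 357, the succinate dehydrogenase assembly gene Sdhaf1 with 357 and the forkhead gene Foxc1 with 343. Foxc1 carried 1368 bases in 5 stretches and 1199 in the control list. Nsmce3, Ccnq, Zbtb22, Bmyc, the small GTPase gene Rhob and the dolichol kinase gene Dolk, between 337 and 314 per kb, completed the 12 densest genes. Of the 12, 8 had more marked bases than in the control list and 4 fewer, a lean that choosing them by their values in the Mettl3 shRNA list favours.

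Genes marked in the Mettl3 shRNA list were mostly those of the control list. Both lists shared 3933 genes, which is 84.8% of the 4636, while 703 (15.2%) were listed only with the Mettl3 shRNA and 818 (17.2% of 4751) only in the control. Genes with many stretches were nearly always shared: 78.1% of those with 1 stretch, 93.5% with 2, 97.2% with 3 or 4 and 134 of 137 (97.8%) with 5 or more. Any 1 stretch in the control list makes a gene shared, so genes with more stretches have more chances to be shared. Of the 3933 shared genes 2581 (65.6%) had the same number of stretches, 636 (16.2%) more and 716 (18.2%) fewer.

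Marked bases were somewhat fewer with the Mettl3 shRNA. Of the shared genes 1680 (42.7%) had more marked bases than in the control list, 2223 (56.5%) fewer and 30 the same, and the ratio had a median of 0.977 with quartiles of 0.824 and 1.12. Changes of 2-fold were uncommon: 181 genes (4.6%) had at least 2 times the marked bases and 245 (6.23%) at least 2-fold fewer. This order depended on the fold: with peaks of a log2 fold of at least 4, 217 of 1466 shared genes had at least 2 times and 109 at least 2-fold fewer. The sum over all stretches was 1874.25 kb, and 1961.36 kb in the control list.

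**Figure D5:**
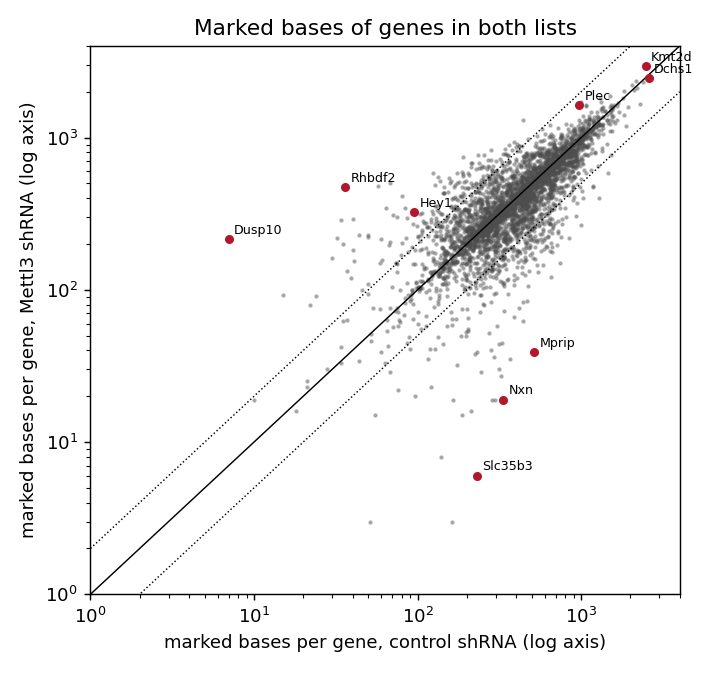
Marked bases per gene in the Mettl3 shRNA list against the control list for the 3933 genes in both, on log axes. The solid line marks equal values and the dotted lines 2-fold differences, beyond which lie 181 genes above and 245 below; named genes are in red.

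Of the 7827 stretches 5922, or 75.7% (74.7 to 76.6), were overlapped by a control stretch by at least 1 base. The share was 96.9% for stretches across the stop codon, 80.7% in the 3' UTR, 76.7% in coding sequence, 58.3% in introns, 55.1% in noncoding exons and 52.8% (45.6 to 59.9) in the 5' UTR. It was 65.6% for stretches of 1 peak, 90.9% for 2 to 4 peaks and 99.4% (521 of 524) for 5 or more. Among stretches of 2 or more peaks it was 96.9% (94.8 to 98.3) across the stop codon, 94.7% (92.5 to 96.4) in the 3' UTR, 91.7% (90.2 to 93.0) in coding sequence and 74.1% (60.3 to 85.0) in the 5' UTR, so most of the spread between the first 3 kinds went with the number of peaks. Among the 5492 stretches matched 1 to 1, 56.2% were shorter than in the control list and 42.3% longer, with a median length ratio of 0.981. Their highest log2 fold was higher in 55.4%, with a median difference of 0.07 and quartiles of -0.25 and 0.41, so single stretches varied by far more than the lists as a whole. By kind, the median difference in log2 fold, Mettl3 shRNA minus control, was 0.28 in the 5' UTR, 0.12 across the stop codon, 0.08 within coding sequence and -0.02 within the 3' UTR.

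Among shared genes with at least 200 marked bases in either list, Dusp10 had the largest ratio of marked bases to the control list. This phosphatase gene, which restrains JNK and p38, had a 215-base 3' UTR stretch against 7 bases in the control list. The pieces did not overlap, lying at chr1:184074926-184075140 and, in the control list, chr1:184075230-184075236 (plus strand). Rhbdf2, a gene of growth factor release, had 473 bases against 36, in a stretch across its stop codon where the control list had a 3' UTR piece. Ccdc82 had 287 against 34, the orphan nuclear receptor gene Nr2f6 479 against 57 and Gm26694 503 against 68. In these 5 genes the highest control log2 fold lay between 3.01 and 3.47, near the lowest fold listed.

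The smallest ratios were in Slc35b3, Nxn, Dph3, Sh3bgrl2 and Mprip. Slc35b3, a nucleotide sugar transporter family gene, had a 6-base stretch in its 5' UTR at chr13:38960529-38960534 (minus strand) and a 231-base control stretch in coding sequence instead. Nxn, the nucleoredoxin gene, kept 19 bases of a 334-base stretch across its stop codon, with a log2 fold of 4.17 against 4.50. Dph3, a diphthamide synthesis gene, had 19 bases against 298, Sh3bgrl2 19 against 283 and Mprip, a gene of the actin cytoskeleton, 39 against 518. In the authors' deposited table of peaks higher in the control, Nxn had a log2 difference of 0.70, Dph3 0.83, Sh3bgrl2 0.97 and Mprip 0.88, and Slc35b3 had none.

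The 703 genes listed only with the Mettl3 shRNA had few and short stretches. Of them 614 (87.3%) had 1 stretch, and their marked bases had a median of 168, against 364 in shared genes. Irs4, an insulin receptor substrate gene, had most: 7 stretches in coding sequence with 916 bases and highest log2 folds per stretch from 4.79 to 8.13. Pou3f3, a neural transcription factor gene, had 771 bases in 5 stretches, the zinc finger gene Bcl11a 722 in 4, the transcription factor gene Maf 678 in 5 and the neurofilament gene Nefm 645 in 4. Other members with 3 or more stretches, named after their values were seen, were Hoxd10, Wnt5a, Trib2, Shank3, Tet1, Spg11, Slitrk3, Celsr3, Smad6, Lrguk, Sox11, Fam84b, Foxo6, En2, Tubb3 and Acta1, 21 genes in all. They include the signalling ligand gene Wnt5a, the demethylase gene Tet1 and the skeletal muscle actin gene Acta1.

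The linear folds of these genes had a feature that bears on their size. Of the 15417 peaks, 1563 (10.1%) had a linear fold over input that was a whole multiple, within 0.001, of 0.986, and 8.67% of control peaks one of 1.17. A peak of this kind occurred in 331 of the 703 genes (47.1%, 43.3 to 50.9) and in 918 of the 3933 shared genes (23.3%, 22.0 to 24.7). All 21 genes with 3 or more stretches had one, and in 19 of them it was their largest fold. Of the 5 genes with the largest folds of the list, the same held for Pou3f2 (log2 8.39), Irs4, Hey1 and Tmem28, and not for the sulfhydryl oxidase gene Qsox2 (log2 7.33, and 4.05 in the control list). Hey1, a Notch target gene, had 324 bases in 2 stretches with a log2 fold of 8.04, against 95 bases and 3.93 in the control list. Whether such folds rest on few input reads was not tested, since input read counts were not analysed here, so the size of the largest folds is uncertain.

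The cell type was checked against marker genes. Of 18 fibroblast markers 6 had a stretch (33.3%, against the 19.4% of all protein-coding genes), among them Fbn1, Pdgfra and Pdgfrb, against 1 of 20 haematopoietic markers (Cd14) and 1 of 25 epithelial, endothelial and neural markers. That 1 was the neuronal tubulin gene Tubb3, which had 354 bases in 3 stretches and none in the control list. A marker without a stretch may still be expressed, so the counts describe marked RNA and do not settle the cell type.

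Genes of the m6A machinery were marked themselves. Of 26 writers, erasers and readers 12 had a stretch, 46.2% against the 19.4% of all protein-coding genes given above, and 8 of the 12 had 2 or more. Rbm15b and Rbm15, adaptors of the writer complex, had 1210 and 1174 marked bases in 4 stretches each, and the reader gene Ythdf3 743 in 2. Of the 11 members in both lists 10 had fewer marked bases than in the control list, where 56.5% of all shared genes did, and Ythdf3 (445 in the control list) was the exception. The differences of the 10 ran from a few bases in Wtap (196 against 199) and Rbm15 (1174 against 1177) to Virma, the scaffold subunit of the complex, which had 475 bases in 2 stretches against 1180 in 6, and Pcif1, the cap adenosine methyltransferase gene, with 207 against 456. These last 4 were named after their values were seen.

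Signalling and early response genes were marked more often than the 19.4% of all protein-coding genes. That baseline takes in genes whether or not these cells express them, and transcript levels were not analysed here. Whether the higher shares of this and the other lists go with expression was therefore not tested. Of 17 ERK feedback genes 15 had a stretch (88.2%), of 8 SOCS genes 7, and of 35 immediate early transcription factor genes 23 (65.7%). Klf9 had 954 bases in 2 stretches (941 in the control list), Ier5 802 (875) and Egr1 706 in 5 stretches against 364 in 4. Spry1, a receptor tyrosine kinase antagonist gene, had 806 bases against 551, Spry4 680 against 764 and the ERK phosphatase gene Dusp5 644 against 487. Socs5 had 962 bases in 27 peaks against 956 in 14, Socs6 895 against 1120 and Cish 435 against 376. Among shared members none of these lists moved mainly 1 way: 10 of 23 early genes and 9 of 15 feedback genes had more marked bases than in the control list. Members in a single list were all in the control list, 3 early genes and 1 feedback gene, so that 26 and 16 were marked there. Over all genes, 818 of 4751 (17.2%) were listed only in the control and 703 of 4636 (15.2%) only with the Mettl3 shRNA.

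Of 44 p53 target genes 14 had a stretch (31.8%, against the 19.4% of all protein-coding genes), and 19 in the control list. Aen, an exonuclease gene, had 950 bases in 4 stretches against 577 in 3, the ubiquitin ligase gene Fbxw7 912 against 795 and Pml, the gene of nuclear bodies, 599 against 467. Of the 14, all shared, 8 had more marked bases than in the control list and 6 fewer. Among 27 genes of p53 and its regulators 9 were marked (33.3%), led by the acetyltransferase genes Crebbp (1617 bases, 1653 in the control list) and Ep300 (1504, 1389), with Ppm1d, the Wip1 phosphatase gene, at 404 and 400. Of 61 DNA damage and repair genes 29 were marked (47.5%), 27 in the control list. The ligase gene Lig4 had 734 against 728, the transcription-coupled repair gene Ercc6 707 against 400 and Palb2, the partner of Brca2, 662 against 847. Of 36 apoptosis genes 11 were marked (30.6%), with Bcl2 at 974 bases in 6 stretches against 973 in 4, Birc2 at 460 against 364 and the p53 target Bbc3 at 341 against 346.

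Chromatin and developmental pathway genes were also often marked. Of 47 histone methyltransferase and demethylase genes 30 had a stretch (63.8%), all shared with the control list, where 33 had one. Besides Kmt2d and Nsd1 the largest was Ash1l with 1307 bases against 1444. Of 53 genes of the Notch, Wnt and TGF-beta pathways 32 were marked, with Notch2 at 1142 bases against 1106 and the Wnt receptor gene Fzd5 at 953 against 899. Of 22 genes of the Hippo pathway and its targets 11 were marked, among them the kinase genes Lats2 (800 against 856) and Lats1 (641 against 726). Of 19 nuclear long noncoding RNAs 6 were marked. Xist, the RNA of X inactivation, had 1285 bases in 4 stretches and 70 peaks with a highest log2 fold of 6.68, against 1066 bases, 66 peaks and 5.82. Tug1 had 661 bases against 596 and Airn 585 against 961.

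Of 40 extracellular matrix genes 11 were marked (27.5%), and of the 10 shared with the control list 8 had more marked bases, where 42.7% of all shared genes did. Tnc, the tenascin C gene, had 802 bases against 631, the proteoglycan gene Vcan 494 in 4 stretches against 228 in 2, and the fibrillin gene Fbn1 492 in 2 against 240 in 1. In the authors' deposited table, which holds only peaks higher in the control, Vcan had log2 differences of up to 1.02 and Fbn1 of up to 1.40, so more marked bases over input stood beside single peaks higher in the control. The highest log2 fold of Fbn1 over input was 4.05, against 4.79.

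The lists of basic machinery genes were almost unmarked. Of 46 ribosomal protein genes 1 had a stretch, Rpl30 with 128 bases, and of the 40 listed oxidative phosphorylation genes 0 had one. No marked member of either list was shared with the control list. The list of 40 does not hold every such gene. Ndufa13, the complex I gene described above, is not counted in it and had a stretch that a control stretch overlapped.

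Few of the stretches held a peak that the authors called higher in the control. In the authors' deposited table, which held 1851 peaks, such peaks fell in 96 of the 7827 stretches (1.23%), and in 470 of the 4636 genes (10.1%) at any place. The same shares of the control list are not given here, so these have no baseline. By kind they fell in 21 of 449 stretches across the stop codon, or 4.68% (2.92 to 7.06), in 42 in the 3' UTR, or 2.65% (1.92 to 3.57), in 30 within coding sequence, or 0.679% (0.458 to 0.967), and in 0 of 626 within introns in the authors' deposited table. Genes with more stretches did not hold them more often in the authors' deposited table: the share was 10.98% at 1 stretch, 9.61% at 2, 7.45% at 3 or 4 and 9.49% at 5 or more. All shares have overlapping intervals except that at 1 stretch (9.85 to 12.2) against that at 3 or 4 (5.55 to 9.76).

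MicroRNA hairpins were rarely covered. Of 1005 RefSeq hairpins 1 was overlapped by a stretch, Mir671 at chr5:24592114-24592211 (GRCm38.p6, plus strand). A 64-base stretch (log2 3.65) covered the bases of both mature arms and little more, where the control list had a 324-base stretch (log2 3.83) annotated to Chpf2 as well. The arms read, with the seed (bases 2 to 8) in capitals:
mmu-miR-671-5p: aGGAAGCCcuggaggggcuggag
mmu-miR-671-3p: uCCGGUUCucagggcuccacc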

How the data were processed

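The series comprised 2 m6A-eCLIP and 2 input libraries. UMI-tools 0.5.1, cutadapt 2.7 and the mm10 build are named in the submitters' processing notes, while no aligner, peak caller or test is named (not given in the sources used here). For each peak over input the authors deposited its log2 fold and its −log10 p-value, the latter limited to 400, and 57.4% of the Mettl3 shRNA peaks stood at that limit. In the comparison list the authors deposited a log2 fold difference and a p-value per peak, for peaks higher in the control only. All of these are the authors' values, and here they served for description, ranking and filtering. Read depth was not analysed here, and the inputs entered only through the authors' folds.

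Starts were read as 0-based and printed 1-based. Peaks of a list that touched or overlapped on a strand were joined in Python 3.11.15 (pandas 2.3.3, numpy 2.4.6), and the joining was tested on simulated data. Gene and region were the authors' annotation, with joint names (36 genes, 94 peaks) put in alphabetical order and kept as 1 gene. In the gene lists a member's own and joint names were added up. Of 4599 Ensembl identifiers 4597 matched the name table, and 4467 of 4636 genes matched RefSeq by symbol. Stretches were compared by an overlap of at least 1 base on the same strand, with exact intervals from scipy 1.17.1 and plots from matplotlib 3.10.9.

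The members, 18 gene lists and 12 families were chosen with earlier results of these data known. Named genes were the 10 with most stretches, the 10 with most marked bases, the 5 with the longest stretch, the 5 with most peaks in a stretch, the 5 with most kinds of region, the 5 with the largest fold, the 5 with the largest and the 5 with the smallest ratio to the control list, the 5 with most marked bases among those absent from it, and up to 3 members of each list. A gene that the rule names is not reported here. The densest genes, the gene starts, the stretches of 2 or more peaks by kind and the genes absent from the control list with 3 or more stretches were chosen after their values were seen. Alternatives were joining up to 50 bases, no joining, a log2 fold of at least 4, peaks at the −log10 p limit, no intronic or intergenic peaks, and stretches of at least 20 bases.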

Additional observations from a re-analysis of the deposited data

How the results depend on the processing

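No paired analysis was possible because each condition had 1 library and no test was run. Over 6 alternative settings and 8 results, 48 values were recomputed, of which 25 stayed close and 23 moved; the cause was not tested beyond what each setting removes. The 7827 stretches became 15417 without joining, 2989 at a log2 fold of at least 4 and 3299 at the −log10 p limit, and the 4636 genes became 2291 and 2305 under the last 2 settings. The median length of 225 bases became 231 with peaks up to 50 bases apart joined, 114 without joining, 200 at log2 4, 267 at the p limit and 230 without intronic and intergenic peaks. The share of genes with 1 stretch, 60.5%, became 62.4%, 36.7%, 77.2% and 70.3% under the first 4 of these. Genes marked in 2 or more kinds of region fell from 24.8% to 13.9% at log2 4, 22.0% at the p limit and 22.6% without introns. The share of stretches overlapped in the control list, 75.7%, became 83.7% without joining, 52.7% at log2 4 and 87.3% at the p limit. The shared genes themselves fell from 3933 to 1466 at log2 4 and 2106 at the p limit. Those with at least 2 times the control's marked bases went from 181 (4.60%) to 217 (14.8%) and 60 (2.85%). The 217 is among the 25 values that stayed close, though its share of shared genes rose. Those with at least 2-fold fewer went from 245 (6.23%) to 109 (7.44%) and 100 (4.75%). Which direction led thus depended on the fold. Limits are the single library per condition, the lower limit on listed folds and the unknown depth: a stretch missing from a list may lie just under its limit.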

Other observations

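Gene families grouped by symbol showed where marking in the Mettl3 shRNA list was common. Of 397 zinc finger (Zfp) genes 260 had a stretch (65.5%), with a median of 436 marked bases, and of the 243 shared with the control list 102 had more and 140 fewer marked bases. Of 129 Kelch-like and BTB genes 58 were marked, with a median of 547.5 bases. Protocadherin genes, which encode cell surface adhesion proteins, were marked in 28 of 69, with a median of 551.5 bases in 2 stretches. Of 27 shared members 17 had more marked bases, where 42.7% of all shared genes did. Solute carrier genes were marked in 63 of 375 (16.8%) and Tmem genes in 41 of 238 (17.2%), close to the 19.4% of all protein-coding genes.

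Hox and Fox genes, both families of developmental transcription factors, had more marked members with the Mettl3 shRNA than in the control list. Of 39 Hox genes 25 were marked against 19, with 7 listed only in the Mettl3 shRNA list and 1 only in the control list, and 13 of 18 shared members had more marked bases. The median over all marked Hox genes went the other way, 287 bases against 333. Of 44 Fox genes 23 were marked against 20, with 4 and 1 listed in a single list, and 13 of 19 shared members had more marked bases, with medians of 473 and 408. Sox genes were marked in 8 of 19 against 6, with 2 of 6 shared members having more marked bases. Over all genes, 703 of 4636 (15.2%) were listed only with the Mettl3 shRNA and 818 of 4751 (17.2%) only in the control list. More marked bases than in the control list were found in 42.7% of all shared genes. None of the family counts has a replicate check, and transcript levels of the families were not analysed here. The other families were marked in 19 of 68 Trim genes, 23 of 56 ubiquitin-specific protease genes, 26 of 78 F-box genes and 6 of 24 ADAMTS genes.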
